A study of Mus musculus with 4 samples.

Results

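The SUMO pathway and PML nuclear body genes described here are 36 mouse genes, chosen by symbol from the deposited table of 52630 gene identifiers. They encode SUMO proteins, the enzymes that attach and remove them, ubiquitin ligases that read SUMO chains, and components or partners of PML bodies. Topors itself is not among them. RNA was measured in AML12, a mouse hepatocyte cell line that descends from an animal carrying a human TGF-alpha transgene. The shTopors cells received lentivirus with a short hairpin against Topors and the shCtrl cells a control hairpin virus, 200 µl each, and all were harvested on day 5. Each group has 2 libraries of RNA depleted of ribosomal RNA. Nothing in the labels states separate cultures or infections within a group. The p-values thus reflect how far these libraries lie apart, a spread that may be technical. The sources used here do not give the number of hairpin sequences.

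SUMO is a small ubiquitin-like protein that is joined to lysines of other proteins, most of them nuclear. The SAE1 and UBA2 heterodimer activates it, E3 ligases such as the PIAS proteins direct it to substrates, and SENP proteases mature it and take it off. PML bodies are nuclear assemblies built on the PML protein, whose SUMO groups bind partners that carry SUMO-interacting motifs. The TOPORS protein localizes to these bodies and can transfer SUMO as well as ubiquitin, which is the link between the hairpin target and the genes below.

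Topors stood at 4.31 and 4.65 TPM in shTopors against 21.9 and 29.2 TPM in shCtrl, a 5.71-fold lower mean, so the libraries went with their labels. This difference had an adjusted p = 0.0823 in limma's fit. TPM is abundance per transcript length, scaled to the same total in each library, which lets levels be compared between genes but keeps no depth. The read number behind each value is therefore unknown. Values were compared as log2(TPM + 1) with limma over the 13509 genes that averaged 1 TPM or more, and 34 members were among them. Of the markers of other liver cells, the 5 stellate cell and fibroblast genes summed to 0.333 and 0.759 TPM in shTopors and 1.023 and 0.815 TPM in shCtrl. The 4 endothelial genes summed to at most 0.201 TPM and the 4 leukocyte genes to at most 1.5 TPM in any library. Hepatocyte markers summed to 6964 and 5234 TPM in shTopors and 5697 and 6466 TPM in shCtrl, mostly Krt8 and Krt18. The hepatocyte transport protein genes among them were uneven: Alb was at 4.15 and 402 TPM in shTopors and 118 and 271 TPM in shCtrl, and Apoa2 was listed at 0 in 3 of the 4 libraries. Of the 8 hepatocyte markers tested, none passed. The smallest p were those of Ttr, at 195 and 410 TPM in shTopors and 1119 and 2168 TPM in shCtrl, and of Cebpa, at 8.05 and 11.6 TPM in shTopors and 20.9 and 22.4 TPM in shCtrl. The part of hepatocyte state in the differences below was not tested.

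No member passed an adjusted p of 0.05, where 0.0370% of all genes tested did (5 genes). Of the 34 tested members, 18 (52.9%) were lower in both shTopors libraries than in both controls, and the background for this was 35.2% of all genes tested. Higher in both was 1 member, Sae1 (2.94%), against 14.6% of all genes. At an unadjusted p under 0.05, 6 members (17.6%) were lower, against 10.7% of all genes, and none was higher, against 3.98%. In these bulk samples, fewer cells of a state and less RNA per cell cannot be told apart. By class, 0 of 2 SUMO proteins, 0 of 2 E1 subunits and 5 of 10 E3 ligases and cofactors were lower without overlap. So were 6 of 10 proteases, 2 of 2 SUMO-targeted ubiquitin ligases and 5 of 8 PML body genes. These class counts are as deposited and are to be read against the same 35.2%. The members' median log2 difference was -0.39, beside -0.18 over all genes.

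The median of all genes lay below 0 and moved with the scaling, to 0.01 after median-of-ratios scaling and -0.01 with quantile normalization, called the other scalings here. In counts added after seeing the data, median-of-ratios scaling left 11 members (32.4%) lower without overlap, against 22.6% of all genes, and 7 higher, against 26.0%. Quantile normalization left 12 members (35.3%) lower, against 22.7% of all genes, and 3 higher, against 24.6%. In both, the only proteases among the lower members were Senp5 and Senp8, so Senp1, Senp6, Senp7 and Desi1 no longer were. Rescaling without mitochondrial genes and the 20 most abundant genes left 19 members lower, against 37.1% of all genes, and 1 higher, against 14.7%. At an unadjusted p under 0.05, the all-gene split was 1447 lower and 537 higher as deposited, and 842 lower and 1144 higher after median-of-ratios scaling. Differences are therefore also read against the all-gene median: 20 of the 34 members (58.8%) lay below it, and the members' median lay 0.21 below it.

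**Figure D1:**
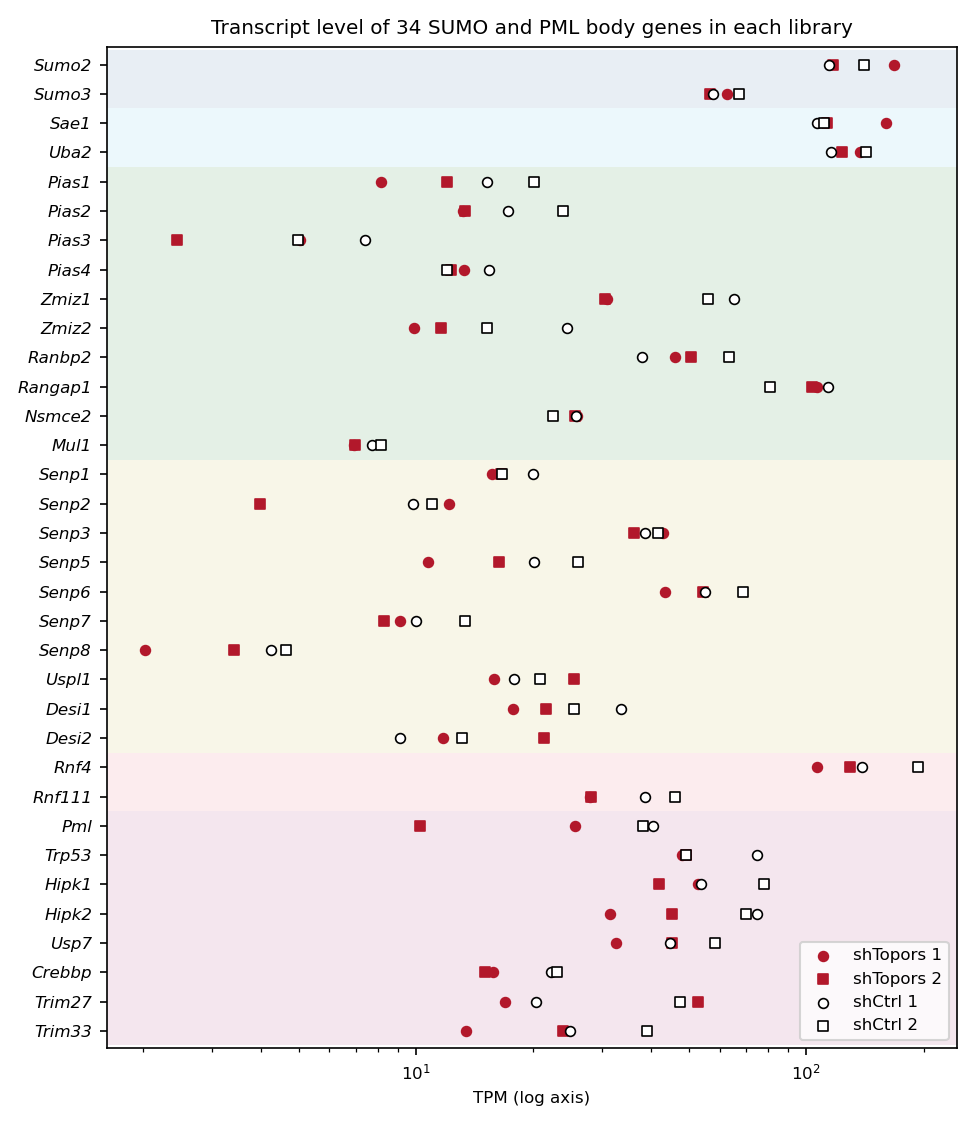
Transcript level in TPM (log axis) of the 34 tested members in each library, shaded by class from SUMO proteins at the top to PML body components and partners at the bottom. Filled red points are shTopors libraries and open points shCtrl libraries; circles are library 1 and squares library 2. Zmiz1, Hipk2 and Pml show both red points left of both open points, while for Trim27 the circles and the squares separate.

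SUMO2 and SUMO3 are the chain-forming SUMO proteins, and their transcripts overlapped between groups as deposited. Sumo2 was at 168 and 117 TPM in shTopors and 114 and 141 TPM in shCtrl, and the groups overlapped. Sumo3 was at 62.8 and 56.8 TPM in shTopors and 57.9 and 67.2 TPM in shCtrl, again with overlap. The Sumo2 to Sumo3 ratio of levels was 2.68 and 2.07 in shTopors and 1.97 and 2.10 in shCtrl, so Sumo2 was the more abundant transcript in each library. After median-of-ratios scaling, but not after quantile normalization, both genes were higher in shTopors without overlap. A second identifier carries the symbol Sumo3 in the table; it spans Sumo3 and Ube2g2 on the same strand and was at most 0.235 TPM, so it was not tested.

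These related transcripts can be told apart by sequence, which is why a stretch of each is shown. The coding sequences (285 bases in Sumo2, 339 bases in the longest Sumo3 form) had 83% identity over 282 aligned bases, and their longest identical run was 17 bases. The lines below give, 5′ to 3′, that run in capitals with the coding bases around it, bases 117 to 213 of Sumo2 and 123 to 219 of Sumo3, from GENCODE M21 transcripts. In mm10, Sumo2 lies on the minus strand of chromosome 11 (115523102 to 115536276) and Sumo3 on the plus strand of chromosome 10 (77606097 to 77618331).
Sumo2: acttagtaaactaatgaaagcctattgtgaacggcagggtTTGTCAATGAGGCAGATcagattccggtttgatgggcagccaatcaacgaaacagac
Sumo3: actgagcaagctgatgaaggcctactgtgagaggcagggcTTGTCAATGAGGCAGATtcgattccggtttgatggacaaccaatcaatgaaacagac

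Of the 50-base stretches in the annotated transcripts of Sumo2, 19.2% also occur in transcripts of other genes, chiefly Gm10241 (mean 0.493 TPM) and Smt3h2-ps4. For Sumo3 that share was 8.57%, mostly from the overlapping second identifier.

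The E1 enzyme joins SAE1 and UBA2, which holds the catalytic cysteine, in equal parts. Sae1 was at 160 and 113 TPM in shTopors and 107 and 111 TPM in shCtrl, so shTopors 2 lay just above the higher control. Uba2 was at 138 and 123 TPM in shTopors and 116 and 142 TPM in shCtrl, with overlap. The Sae1 to Uba2 ratio of levels was 1.16 and 0.917 in shTopors and 0.924 and 0.783 in shCtrl, also overlapping. Sae1, at a log2 difference of 0.30 (SE 0.26), had an adjusted p = 0.598 in limma's fit. The difference was 0.05 without shTopors 1 and 0.55 without shTopors 2. Sae1 was higher without overlap after both other scalings, and Uba2 after median-of-ratios scaling.

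The SUMO proteins and E1 subunits summed to 231 and 174 TPM and to 297 and 236 TPM in shTopors 1 and shTopors 2. In shCtrl 1 and shCtrl 2 those sums were 172 and 208 TPM and 222 and 254 TPM. The highest of each sum was in shTopors 1. Without that library the median log2 difference of the SUMO proteins was -0.12, in place of 0.04. That of the E1 subunits was -0.0015, in place of 0.16. The all-gene median in that fit was -0.16, below both. The SUMO protein median was -0.09 without shCtrl 1, beside an all-gene median of -0.26 in that fit.

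**Figure D2:**
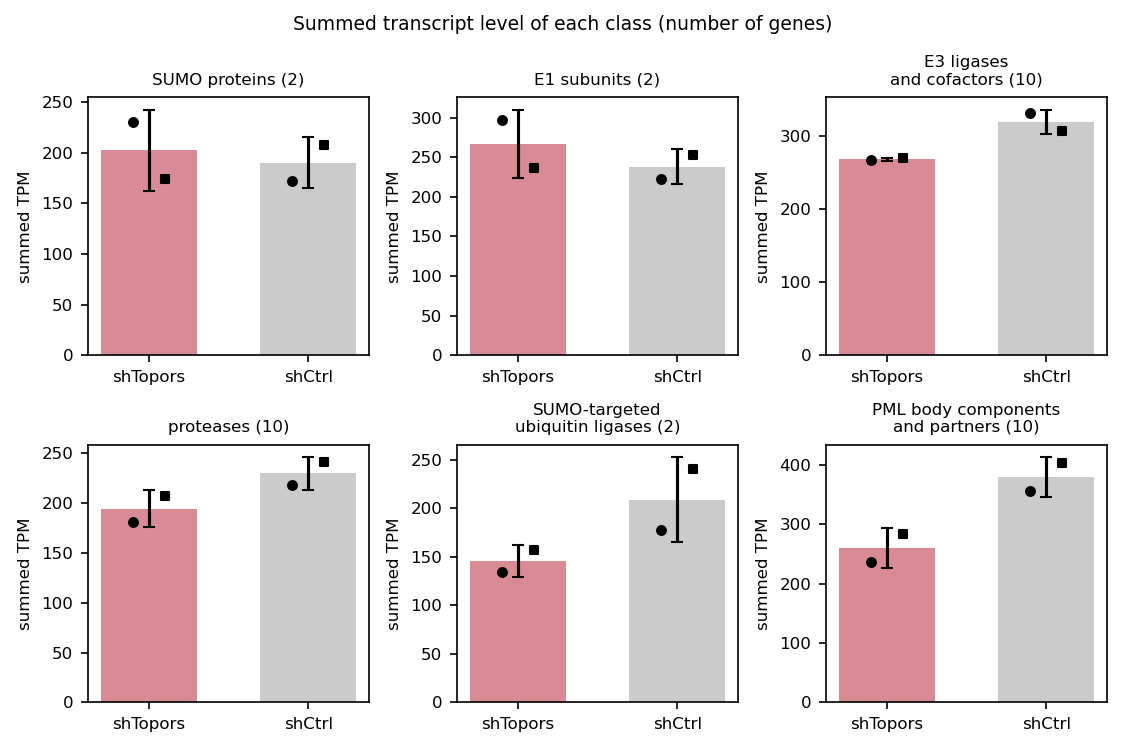
Summed TPM of each class (number of genes in brackets); bars are means of the 2 libraries with SD, circles library 1 and squares library 2, shTopors left of shCtrl. As deposited, the E3 ligases, proteases, SUMO-targeted ubiquitin ligases and PML body genes sum lower in both shTopors libraries. SUMO proteins and E1 subunits overlap. The all-gene median log2 difference as deposited was -0.18, and sums under the other scalings are not shown.

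Among the E3 ligases, the PIAS-like coregulators Zmiz1 and Zmiz2 and the ligases Pias1 and Pias2 were lower in shTopors, and the others were not separated or differed little. Zmiz1, a transcriptional coregulator with a MIZ-type zinc finger, was at 30.9 and 30.5 TPM in shTopors and 65.4 and 55.9 TPM in shCtrl. The shTopors libraries nearly coincided and lay well under both controls. The means were 30.7 ± 0.245 TPM in shTopors and 60.7 ± 6.76 TPM in shCtrl (SD, n = 2), a 1.98-fold lower level. Its log2 difference of -0.95 (SE 0.25) had the smallest adjusted p of the members, 0.208 in limma's fit, and did not pass. In fits with 1 library left out, where the single library of a group is taken to be as variable as the pair, Zmiz1 passed without shTopors 1 (adjusted p = 0.0488) and without shTopors 2 (0.0317). It did not pass without shCtrl 1 (0.72) or without shCtrl 2 (0.926). By gene span, introns included, Zmiz1, Senp5, Desi1 and Hipk2 each overlap a gene on the opposite strand (Zmiz1os1, Ncbp2, Xrcc6 and Tbxas1). Other members do too, among them Senp1 (Pfkm), Pias3 (Nudt17), Rangap1 (Zc3h7b) and Uspl1 (Hmgb1). Whether reads were counted by strand is not known.

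Zmiz2, its paralogue, was at 9.86 and 11.6 TPM in shTopors and 24.4 and 15.2 TPM in shCtrl. Its groups did not overlap, but the controls lay farther apart than the gap to the knockdown. Its log2 difference was -0.79 (SE 0.32), and -0.47 without shCtrl 1. The Zmiz1 to Zmiz2 ratio of levels was 3.13 and 2.63 in shTopors and 2.68 and 3.69 in shCtrl, so the pair did not separate in its ratio.

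The PIAS proteins are SUMO ligases that bind many transcription factors. Pias1 was at 8.13 and 12 TPM in shTopors and 15.2 and 20.04 TPM in shCtrl, a log2 difference of -0.76 (SE 0.31). Pias2 was at 13.2 and 13.4 TPM in shTopors and 17.2 and 23.8 TPM in shCtrl, a log2 difference of -0.57 (SE 0.29). Neither overlapped between groups. Pias3 was at 5.03 and 2.44 TPM in shTopors and 7.39 and 4.98 TPM in shCtrl, where shTopors 1 lay just above shCtrl 2. Pias4 overlapped, at 13.3 and 12.3 TPM in shTopors and 15.4 and 12.02 TPM in shCtrl. Adjusted p in limma's fit was 0.328, 0.402, 0.455 and 0.901 for Pias1 to Pias4 in that order. The difference of Pias1 was -1.02 without shTopors 2 and -0.51 without shTopors 1. That of Pias2 was -0.35 without shCtrl 2 and -0.37 after median-of-ratios scaling. The Pias3 difference of -0.64 (SE 0.37) was -1.04 without shTopors 1 and -0.23 without shTopors 2.

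The nuclear pore ligase and its partner showed no separation. Ranbp2, a nucleoporin with SUMO ligase activity, was at 46.2 and 50.7 TPM in shTopors and 38.1 and 63.3 TPM in shCtrl. Rangap1, the Ran GTPase activator that is itself a main SUMO substrate, was at 107 and 104 TPM in shTopors and 114 and 81.0 TPM in shCtrl. For both genes the shTopors libraries lay between the controls. Rangap1 had the highest level of the class.

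Nsmce2, the SUMO ligase of the SMC5/6 complex, was at 25.9 and 25.5 TPM in shTopors and 25.6 and 22.4 TPM in shCtrl, with overlap as deposited and higher without overlap after both other scalings. Mul1, a ligase of the mitochondrial outer membrane, was at 6.93 and 6.97 TPM in shTopors and 7.73 and 8.14 TPM in shCtrl. Mul1 did not overlap, but its log2 difference was -0.17 (SE 0.27), close to the all-gene median. The Mul1 difference was 0.05 after quantile normalization and 0.02 after median-of-ratios scaling, and it was then not among the members lower without overlap. The class of 10 summed to 266 and 269 TPM in shTopors and 330 and 307 TPM in shCtrl.

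The 10 proteases had a median log2 difference of -0.36, and the largest negative value was that of Senp5. SENP3 and SENP5 act in the nucleolus and prefer SUMO2 and SUMO3. Senp5 was at 10.7 and 16.3 TPM in shTopors and 20.05 and 26.1 TPM in shCtrl, without overlap. The means were 13.5 ± 3.96 TPM in shTopors and 23.1 ± 4.26 TPM in shCtrl (SD, n = 2), with a log2 difference of -0.75 (SE 0.31) and an adjusted p = 0.338 in limma's fit. Senp5 passed without shTopors 2 (adjusted p = 0.0256) but not with any other library left out, and its difference was -0.46 without shTopors 1. Senp3 overlapped, at 42.9 and 36.3 TPM in shTopors and 38.6 and 41.7 TPM in shCtrl, and was higher without overlap after median-of-ratios scaling. Of the Senp3 stretches of 50 bases, 9.09% also occur in other genes' transcripts, chiefly Gm6580 (mean 0.0185 TPM).

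SENP1 and SENP2 mature SUMO precursors and remove SUMO from substrates. Senp1 was at 15.7 and 16.5 TPM in shTopors and 19.97 and 16.6 TPM in shCtrl, separated only by a narrow margin. Senp2 was at 12.1 and 3.98 TPM in shTopors and 9.85 and 11.0 TPM in shCtrl, so the shTopors libraries lay on either side of the controls. Senp2 passed as lower without shTopors 1 (log2 difference -1.19, adjusted p = 0.0172), but its difference was 0.20 without shTopors 2.

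SENP6 and SENP7 shorten SUMO chains. Senp6 had the highest level of the class, at 43.3 and 54.4 TPM in shTopors and 54.9 and 68.9 TPM in shCtrl. Senp7 was at 9.09 and 8.27 TPM in shTopors and 9.97 and 13.4 TPM in shCtrl. In both, the shTopors libraries lay under the controls by less than the spread of the controls. Senp8, whose product acts on the related modifier NEDD8, had the lowest level of the tested members. It was at 2.02 and 3.41 TPM in shTopors and 4.25 and 4.65 TPM in shCtrl, a log2 difference of -0.58 (SE 0.31). The Senp8 difference was -0.30 without shTopors 1 and -0.85 without shTopors 2, -0.33 after quantile normalization and -0.30 with a pseudocount of 5 TPM.

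The proteases outside the SENP family went separate ways. Desi1, a desumoylating isopeptidase gene, was at 17.7 and 21.5 TPM in shTopors and 33.5 and 25.4 TPM in shCtrl, a log2 difference of -0.56 (SE 0.28). The Desi1 difference was -0.36 without shCtrl 1 and -0.35 after median-of-ratios scaling. Desi2, its paralogue, was at 11.7 and 21.3 TPM in shTopors and 9.10 and 13.1 TPM in shCtrl. Its log2 difference of 0.50 (SE 0.36) was the highest of the members, with overlapping groups. It rested on shTopors 2, since the difference was 0.10 without that library and 0.90 without shTopors 1. The Desi2 difference was 0.26 without shCtrl 1. Uspl1, a SUMO protease of Cajal bodies, was at 15.8 and 25.4 TPM in shTopors and 17.8 and 20.7 TPM in shCtrl. For Uspl1 as for Desi2, shTopors 2 was the highest library. After both other scalings Desi1 overlapped between groups, and Desi2 was higher in both shTopors libraries.

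The SUMO-targeted ubiquitin ligases recognise SUMO chains and mark their carriers with ubiquitin, PML among them. Both were lower in shTopors without overlap, also after both other scalings. Rnf4, the most abundant member by mean level, was at 106 and 129 TPM in shTopors and 139 and 194 TPM in shCtrl. Rnf111, also called Arkadia, was at 27.9 and 28.1 TPM in shTopors and 38.5 and 46.1 TPM in shCtrl. The log2 differences were -0.48 (SE 0.26) for Rnf4 and -0.57 (SE 0.25) for Rnf111, with adjusted p = 0.43 and 0.358 in limma's fit. The Rnf4 difference was -0.24 without shCtrl 2 and -0.27 after median-of-ratios scaling, where that of Rnf111 was -0.36. The ratio of Rnf4 to Rnf111 levels was 3.81 and 4.60 in shTopors and 3.61 and 4.20 in shCtrl, and overlapped.

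**Figure D3:**
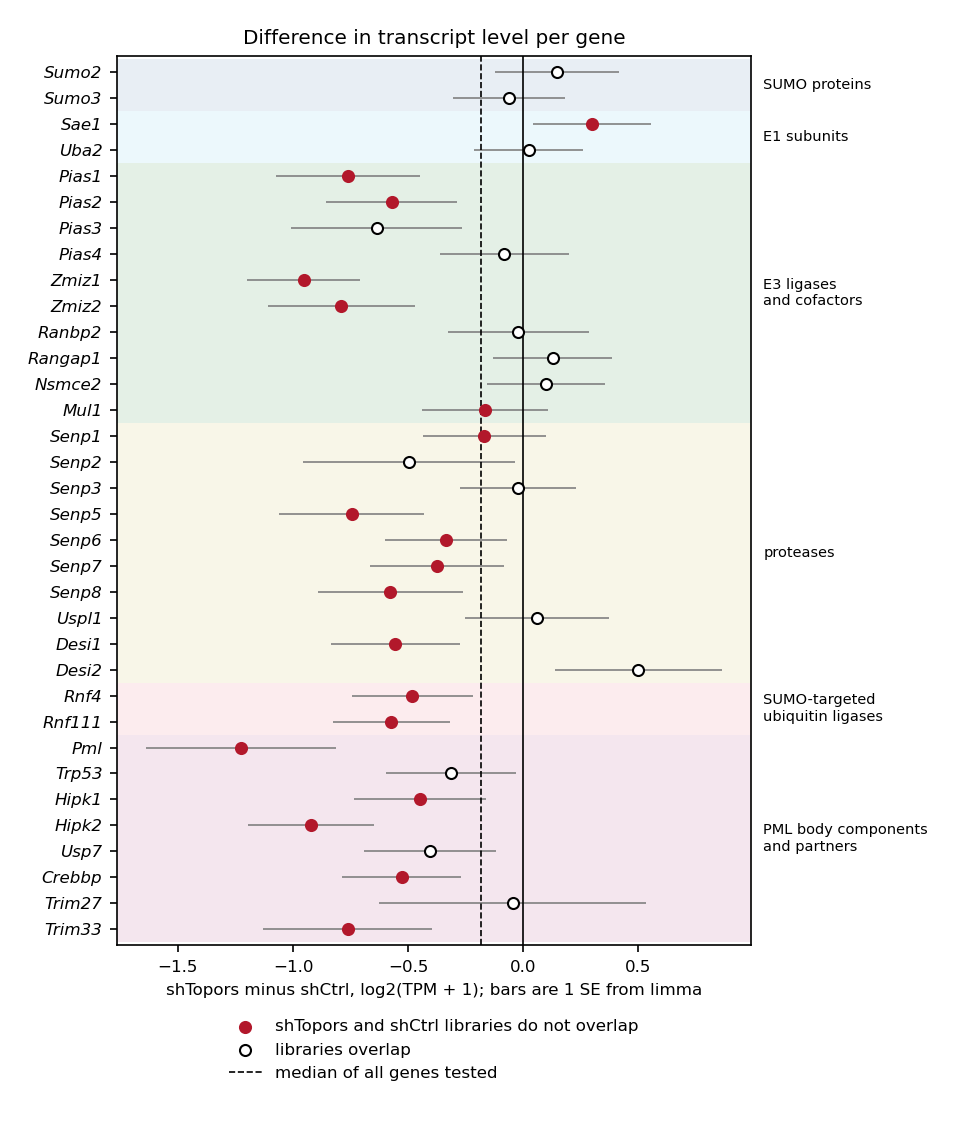
Difference of shTopors minus shCtrl on the log2(TPM + 1) scale for the 34 tested members, with 1 SE from limma. Filled points are members whose shTopors and shCtrl libraries do not overlap, the dashed line is the median of all genes tested (-0.18), and shading marks the class. Pml, Zmiz1 and Hipk2 lie farthest to the left and Desi2 farthest to the right; none passed an adjusted p of 0.05.

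Among PML body genes, Pml, Hipk1, Hipk2, Trim33 and Crebbp were lower in shTopors, each without overlap and none past the threshold. Of these 5, Pml, Hipk2 and Crebbp were lower without overlap also after both other scalings, and Hipk1 after quantile normalization. Pml, the scaffold of the bodies, was at 25.5 and 10.2 TPM in shTopors and 40.5 and 38.2 TPM in shCtrl. The controls lay close together, and the shTopors libraries were under them but 1.24 apart on the log2(TPM + 1) scale. The means were 17.8 ± 10.8 TPM in shTopors and 39.3 ± 1.63 TPM in shCtrl (SD, n = 2), a 2.20-fold lower level. Pml had the largest log2 difference of the members, -1.23 (SE 0.41, adjusted p = 0.262 in limma's fit). It was -1.85 without shTopors 1 (adjusted p = 6.78e-05) and -0.61 without shTopors 2 (0.209). Pml did not pass without either control. Set beside the target, the Pml to Topors ratio of levels was 5.91 and 2.19 in shTopors and 1.84 and 1.31 in shCtrl, since Topors was lower by more.

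Hipk2, a kinase that phosphorylates p53 and is found at PML bodies, was at 31.4 and 45.4 TPM in shTopors and 74.9 and 70.2 TPM in shCtrl. Both shTopors libraries lay far under the controls. The means were 38.4 ± 9.87 TPM in shTopors and 72.5 ± 3.35 TPM in shCtrl (SD, n = 2), with a log2 difference of -0.92 (SE 0.27) and an adjusted p = 0.231 in limma's fit. Hipk2 passed without shTopors 2 (adjusted p = 0.00495) and not with any other library left out. Hipk1, a related kinase, was at 52.9 and 41.9 TPM in shTopors and 53.6 and 77.8 TPM in shCtrl, with shTopors 1 just under shCtrl 1. The Hipk2 to Hipk1 ratio of levels was 0.594 and 1.08 in shTopors and 1.40 and 0.902 in shCtrl, and overlapped.

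Trim33, a TRIM family regulator of SMAD signalling, was at 13.5 and 23.9 TPM in shTopors and 24.8 and 39.1 TPM in shCtrl. Its gap between groups was narrow, and its groups overlapped after both other scalings. Its log2 difference of -0.76 (SE 0.37) passed without shTopors 2 (-1.15, adjusted p = 0.0109) and with no other library left out. The Trim33 difference was -0.37 without shTopors 1 and -0.45 without shCtrl 2. Crebbp, a histone acetyltransferase, was at 15.8 and 15.0 TPM in shTopors and 22.2 and 23.0 TPM in shCtrl. Crebbp had close values within each group, a 1.47-fold lower mean and a log2 difference of -0.53 (SE 0.26, adjusted p = 0.393 in limma's fit). It was -0.32 after median-of-ratios scaling.

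Trp53, Usp7 and Trim27 overlapped between groups. Trp53, the p53 gene, was at 48.0 and 49.3 TPM in shTopors and 74.8 and 49.3 TPM in shCtrl. Here shCtrl 1 stood apart and the other 3 libraries were alike. Usp7, a deubiquitinase of p53 and MDM2, was at 32.5 and 45.2 TPM in shTopors and 44.8 and 58.3 TPM in shCtrl. Trim27, a TRIM ligase found at PML bodies, was at 16.9 and 53.0 TPM in shTopors and 20.3 and 47.5 TPM in shCtrl. Trim27 differed more than 2-fold within each group, low in both libraries numbered 1 and high in both numbered 2.

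The other PML body members were at or near 0. Sp100, which encodes a constitutive body protein, was listed at 0 in both shTopors libraries and at 0.0145 and 0.0259 TPM in shCtrl. Sp110 was listed at 0.0364 and 0.0220 TPM in shTopors and at 0 in both shCtrl libraries. Neither was tested, and no difference is read from these values. Of the 50-base stretches of Sp110, 36% also occur in transcripts of other genes, such as Gm16026. The 10 PML body genes summed to 236 and 284 TPM in shTopors and 356 and 403 TPM in shCtrl.

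**Figure D4:**
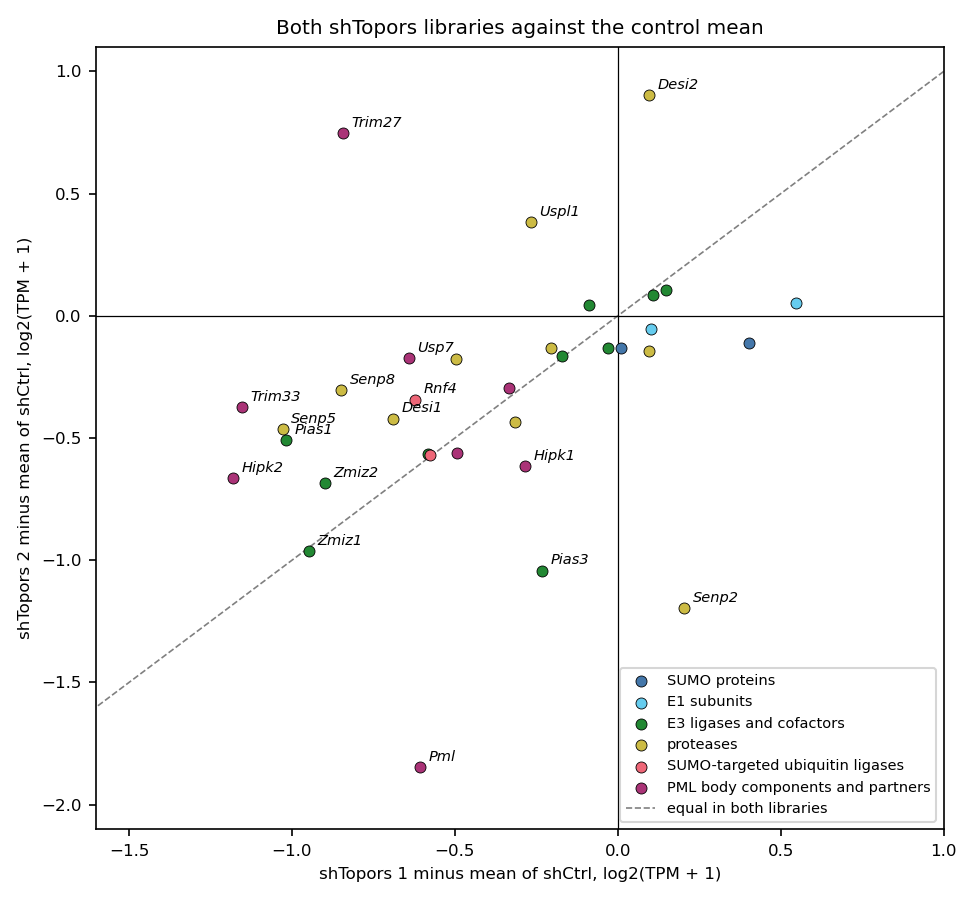
Each tested member in shTopors 1 (horizontal axis) and shTopors 2 (vertical axis), both relative to the control mean on the log2(TPM + 1) scale and coloured by class; the dashed line marks equal values. In 22 of the 34 members both libraries lie under the control mean and in 4 both lie above it. Pml, Senp2 and Trim27 lie at least 1 from the dashed line along either axis, and Zmiz1 lies close to it.

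The knockdown libraries differed from each other in these genes as they did over the transcriptome. The SD of the log2 difference of library 1 minus library 2 was 0.569 in shTopors and 0.406 in shCtrl over members. Over all genes it was 0.688 in shTopors and 0.429 in shCtrl. At least 2-fold apart on that scale were 3 members in shTopors (Pml, Senp2 and Trim27) and 1 in shCtrl (Trim27). Members that passed with 1 knockdown library left out were mostly different ones. Without shTopors 1, Pias3, Pml, Senp2 and Zmiz1 passed as lower, 4 of 34, against 6.67% of all genes. Without shTopors 2, Hipk2, Pias1, Senp5, Trim33 and Zmiz1 passed as lower, 5 of 34, against 10.9% of all genes. Zmiz1 was the gene in both sets. No member passed without shCtrl 1, where 0.0222% of all genes passed as lower, and neither a member nor any other gene did without shCtrl 2 (0.00%). At an unadjusted p under 0.05 in these limma fits, 0 members were lower without shCtrl 1, against 5.77% of all genes, and 3 without shCtrl 2, against 3.17%.

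Promoters of the 3 members with the smallest p are shown, since these genes also had the largest differences and their starts can be compared. The sequences are from RefSeq on GRCm38.p6 and run 5′ to 3′ on the gene's strand, from 250 bases before to 50 after a start. Capitals mark the CCAAT box (CCAAT) or the GC box (GGGCGG), read on both strands, with overlapping matches joined. Zmiz1 is at chr14:25458935-25459234 on the plus strand, Hipk2 at chr6:38876141-38876440 and Pml at chr9:58249737-58250036 on the minus strand.
Zmiz1: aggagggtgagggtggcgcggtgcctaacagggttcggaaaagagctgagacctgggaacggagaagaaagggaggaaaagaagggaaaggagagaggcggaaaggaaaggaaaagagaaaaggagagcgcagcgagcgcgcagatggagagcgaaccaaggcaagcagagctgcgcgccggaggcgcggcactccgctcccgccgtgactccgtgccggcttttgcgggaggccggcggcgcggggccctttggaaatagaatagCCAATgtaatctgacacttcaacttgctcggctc
Hipk2: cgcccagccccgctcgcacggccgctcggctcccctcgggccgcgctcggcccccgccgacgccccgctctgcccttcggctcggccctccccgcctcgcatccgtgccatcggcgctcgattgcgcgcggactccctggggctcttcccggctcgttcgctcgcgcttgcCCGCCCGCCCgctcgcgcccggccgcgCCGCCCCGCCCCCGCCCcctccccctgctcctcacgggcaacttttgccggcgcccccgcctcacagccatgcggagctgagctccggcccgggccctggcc
Pml: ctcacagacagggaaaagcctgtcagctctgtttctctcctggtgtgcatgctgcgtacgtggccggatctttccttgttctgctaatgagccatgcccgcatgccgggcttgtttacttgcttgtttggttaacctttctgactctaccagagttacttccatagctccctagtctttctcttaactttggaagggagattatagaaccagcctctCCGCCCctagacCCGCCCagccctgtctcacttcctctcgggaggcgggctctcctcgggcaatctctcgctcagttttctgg

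Neither element was common to all 3 starts. Zmiz1 holds 1 CCAAT box and no GC box, Hipk2 holds 5 GC box matches, and Pml holds 2. Another annotated Hipk2 start, not shown, holds neither. They differ in base composition too, with 26 CpG in Zmiz1, 48 in Hipk2 and 11 in Pml. RefSeq promoters were matched for 29 of the 36 members, 43 windows in all. A GC box was in 58.1% of these windows, against 63.1% of windows of tested genes and 35.7% of all windows. A CCAAT box was in 30.2%, against 38.1% and 37.4%. The core of the interferon-stimulated response element was in none of the 43 windows, against 2.89% and 3.44%. The ETS site core (CCGGAAGT) was in 11.6%, in windows of Mul1, Senp5, Senp7 and Uba2, against 8.68% and 3.89%. An E box (CACGTG) was in 9.30%, against 10.1% and 7.15%, and the cyclic AMP response element (TGACGTCA) in 2.33%, against 3.17% and 1.79%.

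Of 12 other SUMO pathway genes, none passed, 4 (33.3%) were lower without overlap, against 35.2% of all genes, and none was higher, against 14.6%. Their median log2 difference was -0.16, beside -0.18 over all genes.

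Of 15 tested among 16 other PML body genes, none passed, 6 (40%) were lower without overlap and 3 (20%) higher, against 35.2% and 14.6% of all genes. The median log2 difference was -0.38. Morc3, an ATPase found at PML bodies, was at 21.3 and 28.5 TPM in shTopors and 32.8 and 46.4 TPM in shCtrl, with a log2 difference of -0.64 and an adjusted p = 0.375 in limma's fit. Ubn1, a subunit of the HIRA histone chaperone complex, was at 12.7 and 16.5 TPM in shTopors and 21.1 and 22.1 TPM in shCtrl, with a log2 difference of -0.55 and an adjusted p = 0.404.

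Pml, Sp100 and Sp110 are interferon-induced genes, so interferon pathway genes are set beside them. Of 12 tested among 14, none passed, 8 (66.7%) were lower without overlap and none higher, against 35.2% and 14.6% of all genes as deposited. The median log2 difference of the 12 was -0.58. Of the 8, Ifit1, Irf7 and Ifit3 averaged 0.515, 0.731 and 0.517 TPM in shTopors and met the filter of 1 TPM only through shCtrl. Their place in this count and median is thus partly fixed by the filter. Rsad2 and Oas1a, below the filter, overlapped between groups. Ifit1, an antiviral RNA-binding protein gene, was at 0.303 and 0.727 TPM in shTopors and 7.496 and 7.37 TPM in shCtrl, with a log2 difference of -2.49 and an adjusted p = 0.0823 in limma's fit. Ddx58, the RIG-I gene, was at 16.6 and 26.3 TPM in shTopors and 44.7 and 51.8 TPM in shCtrl, with a log2 difference of -1.17 and an adjusted p = 0.208. All 14 summed to 205 and 224 TPM in shTopors and 300.3 and 277 TPM in shCtrl. The part of interferon signalling in the Pml difference was not tested.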

How the data were processed

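The authors deposited TPM per gene for 2 shTopors and 2 shCtrl libraries. Per the submitters' processing notes, HISAT2, HTSeq, DESeq2 and StringTie were used with the build mm10. The sources used here do not give the program that made the TPM or its strand setting. Without strand, reads in bases that an antisense gene shares with a member such as Zmiz1 or Hipk2 cannot be assigned to either. Overlaps were taken from gene spans, introns included, and shared exon bases were not computed. The table had 52633 rows; values of 3 identifiers on 2 rows were summed, and no value column was left over. TPM keeps no depth, so no counting interval was computed.

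Values were tested as log2(TPM + 1), which understates differences of low genes, by limma 3.58.1 (R 4.3.3) with its trend option and no covariate, on genes averaging 1 TPM or more. Differences are shTopors minus shCtrl. P-values were adjusted over all genes tested by the Benjamini-Hochberg method and called under 0.05. The steps were run on simulated data with an equal spread in all libraries and changes larger than that of any member. Such a run checks the steps and does not show what these libraries can detect. An exact permutation test of 2 against 2 libraries cannot pass the threshold and was not run. Members and lists were chosen with earlier results of these data known, so no set test was made and lists are described by counts and medians. Every member's TPM is given, and the log2 difference for members without overlap and at least 0.5 in size; differences or p of Sae1, Pias3, Pias4, Mul1, Senp2, Desi2 and Rnf4 were added after their values were seen. Listed genes are those with the smallest p, 2 a list. Single genes of the list of other SUMO pathway genes are not reported here. Coordinates, transcripts and overlaps come from GENCODE M21 (mm10). Shared stretches are exact matches of 50 bases on the transcript strand. Python 3.11.15, numpy 2.4.6, pandas 2.3.3 and matplotlib 3.10.9 were used. There were 14 alternatives, and overlap under other scalings was added after seeing the data.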

Additional observations from a re-analysis of the deposited data

How the results depend on the processing

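With all libraries no member passed under any of the 10 alternatives to the pseudocount, filter, scaling, variance model or pairing. The number of all genes called was 5 as reported, 0 with no filter on low values, and 1 with a filter at 5 TPM, with median-of-ratios scaling, with quantile normalization and when rescaled without mitochondrial genes and the 20 most abundant genes. With 1 library left out it ranged from 0 to 2166, and the number of members called from 0 to 5: 4 without shTopors 1, 5 without shTopors 2, and 0 without either control. The 12 members given by the rule were chosen as not overlapping between groups. The sign of their differences was thereby fixed under changes of pseudocount, filter, variance model or pairing and with a library left out. Only the scalings could change it, and all 12 stayed negative under each of these. Senp8 was not tested with the filter at 5 TPM. Members lower without overlap numbered 18 as reported, 11 with median-of-ratios scaling, 12 with quantile normalization and 19 when rescaled. Members at an unadjusted p under 0.05 numbered 6 as reported, 2 with median-of-ratios scaling, 3 with quantile normalization, 4 with no filter, and from 0 to 10 with 1 library left out. The share of all genes lower at that p moved as well, from 10.7% as reported to 6.25%, 6.54% and 8.33% under the first 3 of these, and between 3.17% and 19.7% with 1 library left out. The median log2 difference of the members was from -0.48 to -0.19 under these alternatives. The median of the E3 class was -0.37 as reported and -0.24 with a pseudocount of 5 TPM. It was -0.17 with a filter at 5 TPM or either other scaling. The all-gene median was -0.18 as reported, -0.12 with that pseudocount and -0.16 with that filter. After median-of-ratios scaling and quantile normalization the all-gene median was 0.01 and -0.01.

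The replicate numbers are shared between groups, but with 2 pairs and no label on what a number marks they are not known to pair the libraries. Deviations of same-numbered libraries correlated at 0.20 over the 13509 tested genes. With the replicate number as a block, 33 genes passed in place of 5, and no member was called. Read depth is unknown, so what depth limits could not be assessed.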

Other observations

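Position and length were read beside the differences. The 18 members lower without overlap had a median gene span of 66.5 kb, from 7.59 kb (Mul1) to 208 kb (Zmiz1). The other 16 tested members had a median of 30.0 kb, up to 227 kb for Nsmce2, which was not lower. Over the 13483 tested genes with an annotation the median span was 18.1 kb. Spearman's rho of the log2 difference with the longest transcript length was -0.38 over the 34 members and -0.17 over all genes. With gene span it was -0.25 and -0.14. With 1 library left out, the value for transcript length ranged from -0.51 to -0.21 over members and from -0.19 to -0.13 over all genes. Genes are not independent replicates and share these 4 libraries, so these values are descriptions. The part of gene length or RNA quality in the differences was not tested.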
